A study of Mus musculus with 10 samples.

Results

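The 57 genes described here code for replication-dependent histones, the proteins that package newly made DNA. They were chosen by name: every row of the deposited expression table whose Ensembl identifier maps, in the GENCODE M21 annotation of the mouse genome, to a protein-coding symbol that begins with Hist1h, Hist2h, Hist3h or Hist4h. The table holds 18047 genes, and 57 of the 67 protein-coding genes annotated with such a symbol have a row; the other 10 were not analysed here. The 57 comprise 5 genes for H1, 15 for H2A, 14 for H2B, 10 for H3 and 13 for H4. RNA came from tumours of 4T1, a mouse mammary carcinoma line, which had grown for 3 weeks in BALB/c mice and were then cut as frozen sections. In 5 libraries (KO1 to KO5) the 4T1 cells carried a gene knockout, and in 5 (WT1 to WT5) they were wild type, while the mice received no other treatment that the labels name. The labels do not say how many knockout clones were used, nor which animal each library came from, so a p-value here covers the spread among libraries and may not cover that among animals. The series title asks about claudins and immune exclusion in breast cancer, a question that the histone genes do not address.

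In a dividing cell, histone genes are switched on at the start of DNA synthesis and their messenger RNAs are removed when it ends. Most of these messages carry no poly(A) tail: they end just after a short conserved stem-loop, which the stem-loop binding protein (Slbp) holds and which the U7 small nuclear ribonucleoprotein helps to cut. H3 with H4, and H2A with H2B, form the core of the nucleosome, around which DNA winds, and H1 binds the linker DNA between cores. Libraries primed with random primers on RNA depleted of ribosomal RNA, as here, can capture such messages, which a selection for poly(A) tails would largely miss. A tumour section holds cancer cells, immune cells and stroma, and in such bulk RNA fewer dividing cells and less histone RNA per cell cannot be told apart.

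The stem-loop is the mark that sets these messages apart, so its letters are shown first for 5 members whose values are given later and for Hist1h4j, which has a rarer H4 form, with 5 bases on each side. The letters are those of the GENCODE M21 transcripts on the GRCm38 build, read on the gene's own strand, with T for the U of the RNA, and the capitals mark the bases that pair to form the stem.
Hist1h1c, chr13:23739512-23739527, plus strand: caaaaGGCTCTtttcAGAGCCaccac
Hist2h2ac, chr3:96220418-96220433, minus strand: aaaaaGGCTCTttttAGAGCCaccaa
Hist1h2bb, chr13:23747203-23747218, plus strand: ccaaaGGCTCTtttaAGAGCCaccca
Hist3h2ba, chr11:58949349-58949364, plus strand: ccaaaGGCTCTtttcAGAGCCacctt
Hist1h4n, chr13:21831798-21831813, minus strand: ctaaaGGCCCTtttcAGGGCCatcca
Hist1h4j, chr13:21735437-21735452, plus strand: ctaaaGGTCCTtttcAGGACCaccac
The positions are those of the 16 bases of stem and loop. A match to the histone stem-loop consensus was found after the stop codon in 40 members, and 4 others with at least 60 bases there had none. Hist1h4m and Hist1h2ap, with 52 and 57 bases after the stop codon, are among the 40. Members that short were counted only where a match was found, so no share is given. In the other 13 members the annotated transcript has fewer than 60 bases after the stop codon and no match, and in 10 of these it ends at the stop codon itself. The stem began 22 to 55 bases after the stop codon, with a median of 32.5. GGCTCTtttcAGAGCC was the commonest form and was held by 21 members of the H1, H2A, H2B and H3 classes. In H4 the stem differed: 10 of 12 H4 stem-loops opened with GGCCCT and the other two, of Hist1h4b and Hist1h4j, with GGTCCT, whereas 28 of 28 stem-loops of the other classes opened with GGCTCT. Hist2h2be, Hist1h2bc, Hist1h2bq and Hist1h2br had enough sequence after the stop codon but no match in it.

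The members lie in few places in the genome. On chromosome 13, 22 lie between 21715763 and 22043676 and 27 between 23531050 and 23764406 (GRCm38). Chromosome 3 holds 5 members, chromosome 11 holds Hist3h2a and Hist3h2ba, and chromosome 6 holds Hist4h4. A single exon makes up the annotated gene of 52 members. The gene models differ in length, and 16 exceed 1 kb of exonic sequence: Hist1h1c, Hist1h1d, Hist1h1e, Hist1h2ac, Hist3h2a, Hist1h2bc, Hist1h2be, Hist1h2bq, Hist1h2br, Hist2h2be, Hist1h3d, Hist1h3f, Hist2h3c2, Hist1h4d, Hist2h4 and Hist4h4. There were 11 pairs of members that run away from each other with less than 500 bases between their starts, each an H2A gene beside an H2B gene, 175 to 301 bases apart.

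The bases in front of the genes are shown for 1 abundant member of each class, because the classes differ in which promoter motifs they hold. Each run is the 150 bases before the RefSeq start of the gene (build GRCm38.p6), in the direction of transcription, and capitals mark the motifs named after the runs, on either strand.
Hist1h1c, chr13:23738657-23738806, plus strand: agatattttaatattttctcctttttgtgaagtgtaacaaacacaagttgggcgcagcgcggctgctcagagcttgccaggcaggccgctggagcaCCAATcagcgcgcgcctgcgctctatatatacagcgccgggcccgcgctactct
Hist1h2ak, chr13:21753913-21754062, minus strand: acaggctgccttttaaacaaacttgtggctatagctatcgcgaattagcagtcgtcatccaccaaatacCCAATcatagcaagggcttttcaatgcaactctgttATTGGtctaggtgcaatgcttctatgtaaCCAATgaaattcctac
Hist1h2bb, chr13:23746584-23746733, plus strand: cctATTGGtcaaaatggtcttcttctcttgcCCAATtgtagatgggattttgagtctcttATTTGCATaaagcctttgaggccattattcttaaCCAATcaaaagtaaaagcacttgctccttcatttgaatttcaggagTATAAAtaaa
Hist1h3h, chr13:21717478-21717627, plus strand: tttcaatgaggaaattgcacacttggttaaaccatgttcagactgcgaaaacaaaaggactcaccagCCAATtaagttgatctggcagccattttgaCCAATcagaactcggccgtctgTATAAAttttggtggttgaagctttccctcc
Hist1h4f, chr13:23551669-23551818, minus strand: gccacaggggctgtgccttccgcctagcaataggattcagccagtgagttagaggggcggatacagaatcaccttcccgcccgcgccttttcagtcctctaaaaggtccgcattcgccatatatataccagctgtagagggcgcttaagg
RefSeq promoter windows, from 250 bases before the start to 50 after, were matched for 52 of the 57 members through their Entrez gene numbers. CCAAT, the letters bound by NF-Y, stood on either strand in 82.7% of the members' windows and in 37.4% of all 32851 promoter windows. It was in all 40 windows of the H1, H2A, H2B and H3 genes and in 3 of 12 of the H4 genes. The letters TATAAA, bound by the TATA-binding protein, stood in 61.5% of the members' windows and in 13.6% of all windows, in every class. ATTTGCAT, the octamer bound by Pou2f1, stood in 6 H2A and 3 H2B windows and in none of the other classes, 17.3% of members against 1.74% of all windows. The windows of an H2A and an H2B gene that run away from each other can overlap. A motif is then counted for both genes, as the octamer of Hist1h2ah and Hist1h2bk is, so the members' shares of each motif are not those of separate sequences. No motif contains another, and a match describes the sequence only. The run of Hist1h4f shown above holds none of them, and the TATAAA of Hist1h2ak lies in the 50 bases after the RefSeq start.

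Many members are near copies of each other, which limits how far reads can be told apart. All 13 H4 genes code for 1 protein of 103 amino acids, and the 10 H3 genes code for 2 proteins. The H2A genes code for 7 proteins, the H2B genes for 8 and the H1 genes for 5. Cut into words of 50 bases, 27 members share at least 50% of their transcript words with another histone gene, and 4 share none. How reads that fit several copies were assigned is not given in the sources used here, so single values of these members are uncertain, and class sums are less exposed to that. The use of strand is not given either. Hist3h2a shares 708 exonic bases with Trim17 and Hist1h2be shares 496 with Hist1h1e, on the same strand. An antisense gene lies over part of Hist2h2ab (Gm15444) and of Hist1h4b (4930558J22Rik), and their reads cannot be told apart without strand.

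Behind the values stood 8609756 reads in KO1, the shallowest library, to 19934428 in WT4. The table gives read counts that the authors normalized for depth, here called normalized counts. All 57 members were detected in every library, with at least 4 reads. They took between 0.406% of a library's reads, in KO1, and 1.78%, in WT2. The library names of KO5 and WT1 to WT4 begin with RESUB, which the labels do not explain, and those of KO1 to KO4 and WT5 do not. WT2 and WT5 carry the same number, 170, in their names, and the labels do not say whether they come from one tumour; they are counted as 2 libraries here.

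The histone genes moved up and down together from library to library, and this spread was wider than the difference between KO and WT. Their summed normalized count was 48885, 70264, 63584, 123921 and 181369.7 in KO1 to KO5 and 117536, 251458, 59915, 89337 and 66219.7 in WT1 to WT5. WT2 was the highest and KO5 the next, while KO1 was the lowest, so the highest and the lowest library differed 5.14-fold. The sums averaged 97605 ± 54744 in KO and 116893 ± 78552 in WT (SD over 5 libraries each), and the ranges of the groups overlapped. Among single members, WT2 held the highest value of 55 of 57, KO5 the second highest of 49, and KO1 the lowest of 41. The exceptions at the top were Hist1h1a and Hist2h2ab, which were highest in KO5. From its lowest to its highest library a member spanned 2.43-fold to 15.8-fold, with a median of 5.68-fold. The within-group SD of a member, on the log2 scale, had a median of 0.84, against 0.44 over the 17975 genes tested.

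**Figure D1:**
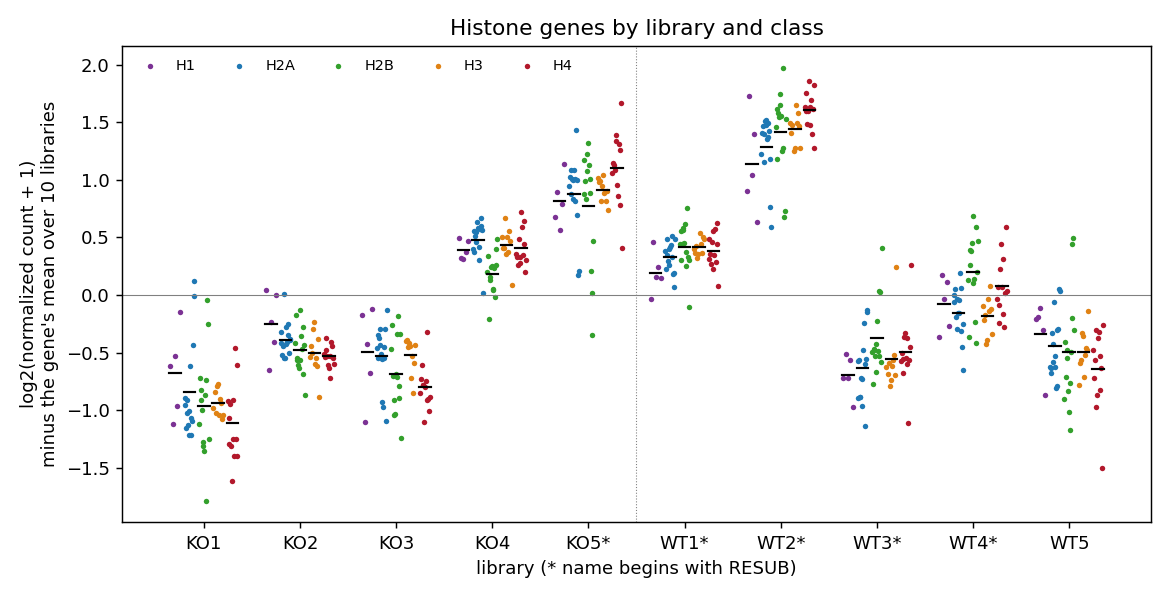
Each point is 1 histone gene in 1 library, placed by its log2(normalized count + 1) minus that gene's mean over the 10 libraries (vertical axis), with libraries on the horizontal axis, colours for the 5 classes and a black bar for each class mean. The points of WT2 average 1.40 and those of KO1 -0.93, and the class means of WT2 run from 1.14 for H1 to 1.60 for H4.

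On average over the 57 members, log2 levels lay above or below the gene's own mean by -0.93, -0.45, -0.63, 0.37 and 0.91 in KO1 to KO5 and 0.37, 1.40, -0.53, -0.01 and -0.50 in WT1 to WT5. The lowest and highest of these differ by 2.34, or by 1.99 after GC content and transcript length were regressed out of each library. WT2 was the highest library in all 5 classes, and KO1 the lowest in all but H1, where WT3 was lowest. The range over libraries was 1.84 for H1, 2.13 for H2A, 2.37 for H2B, 2.38 for H3 and 2.71 for H4. WT2 and WT5, whose names share a number, stood far apart: WT2 was above WT5 for 57 of 57 members, by a median of 4.02-fold and from 1.18-fold (Hist2h2be) to 10.1-fold (Hist1h4b). In mean log2 level WT2 stood 1.90 above WT5, and 1.46 above it after GC content and transcript length were regressed out. For H2A the gap went from 1.73 to 1.05. Over genes, the deviation from the gene's mean correlated with GC content at 0.18 in WT2, -0.40 in WT5 and 0.52 in WT4. WT2 and WT5 are both wild type, so the distance between them lies within a group.

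Between KO and WT, 0 of the 57 histone genes passed the test. The test was limma on log2(normalized count + 1) with Benjamini-Hochberg adjustment over all 17975 genes, and the lowest adjusted p of a member was 0.682. At this threshold limma called 0.00556% of all genes, a single gene. On the whole reads recovered from the table, edgeR also called 0 members (lowest adjusted p 0.520) and 0.00556% of all genes, and DESeq2 called 0 members (lowest adjusted p 0.285) and 0.676% of all genes. One member, Hist3h2ba, had an unadjusted p below 0.05 with limma, against 6.49% of all genes, and edgeR and DESeq2 each found 1 such member. The ranges of the 2 groups were separate for 0 of 57 members, against 1.42% of all genes.

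The fitted differences leaned to lower values in KO without passing the test. Of the 57, 51 were lower and 6 higher in KO, 89.5% lower, against 51.0% of all genes tested. Because the members move together from library to library, they are not independent, and this count is a description. The median log2 difference was -0.29 over the 57 members and -0.01 over all genes. By class the median was -0.13 for H1, -0.15 for H2A, -0.48 for H2B, -0.25 for H3 and -0.38 for H4. The 95% confidence intervals of the 57 members reached from -2.28 to 1.26, and those of 12 members lay within log2 values of -1 to 1. For the other members the interval includes a 2-fold change. The value depended on single libraries: the median over the members was 0.04 without WT2, -0.08 without KO1, -0.16 without KO3, -0.47 without WT3 and -0.54 without KO5. It was 0.43 when the prefix RESUB entered the model as a covariate, and 48 members were then higher in KO. Fitted on the prefixed libraries alone, with KO5 as the lone KO library, it was 0.69, and on the others, with WT5 as the lone WT library, 0.12.

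**Figure D2:**
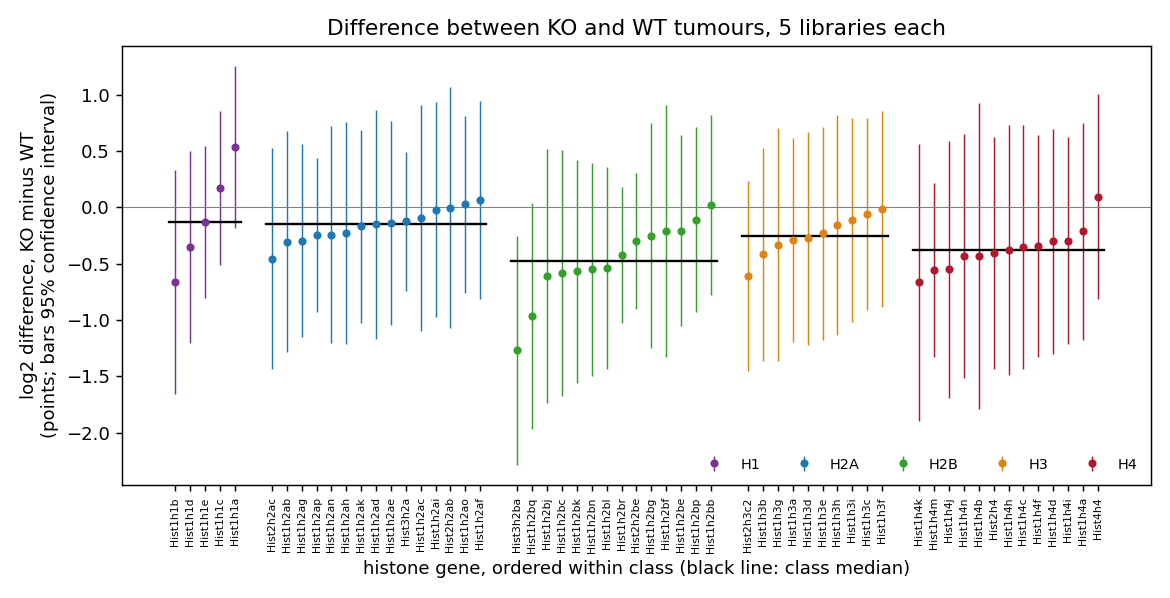
Points give each histone gene's fitted log2 difference, KO minus WT (vertical axis), with 95% confidence intervals as bars, for 5 libraries a group; genes are ordered within each class and black lines mark class medians. Of the points, 51 lie below 0, and every interval crosses 0 except that of Hist3h2ba, the lowest point at -1.27.

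Among the H1 genes, Hist1h1c and Hist1h1b had the highest levels per kb of annotated exonic length. Normalized counts of Hist1h1c, which codes for linker histone H1.2, were 4246, 6708, 5785, 9187 and 10392 in KO1 to KO5 and 6341, 12148, 3942, 5057 and 5642 in WT1 to WT5. WT2 and KO5 were the highest and WT3 the lowest, and the groups overlapped, with a log2 difference of 0.17 ± 0.32 (SE). Hist1h1b (H1.5) was measured at 1054, 1456, 1066, 2872 and 4270.0 in KO1 to KO5 and 3152, 7598, 1609, 2586 and 2006 in WT1 to WT5. WT2 stood far above the other WT libraries, KO1 and KO3 were lowest, and the difference was -0.66 ± 0.46 (SE). Hist1h1a (H1.1), the least abundant H1 gene per kb, was among the 6 members with a higher fitted value in KO, with means of 373 ± 159.9 (KO) and 264 ± 126 (WT; SD, n = 5). Its libraries read 263, 291, 267, 403 and 639.9 in KO1 to KO5 and 322, 451, 148, 242 and 158 in WT1 to WT5. KO5 was highest and WT3 and WT5 were lowest, the groups overlapped, and the difference of 0.53 ± 0.33 (SE) did not pass the test (limma adjusted p 0.874). Hist1h1d and Hist1h1e lay between, with differences of -0.35 and -0.13.

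H2A and H2B pair as dimers, which join the H3 and H4 tetramer in the nucleosome core. Hist1h2ak, the most abundant H2A gene per kb, had normalized counts of 1345, 1873, 1817, 3291 and 4799.9 in KO1 to KO5 and 3252, 5841, 1679.8, 2496 and 1621 in WT1 to WT5. Its difference was -0.17 ± 0.40 (SE), smaller than the spread between libraries. Hist1h2ai, the next, was measured at 886, 1369, 1344, 2519 and 3495 in KO1 to KO5 and 2005, 4559.9, 923, 1646 and 1104 in WT1 to WT5. WT2 and KO5 were again highest, KO1 and WT3 lowest, and the group means were close, 1923 ± 1066 (KO) and 2048 ± 1469 (WT; SD, n = 5). Hist2h2ac, from the chromosome 3 cluster, had the smallest p among H2A genes with lower values in KO, at -0.46 ± 0.45 (SE). Its values were 134, 212, 143, 348 and 567 in KO1 to KO5 and 402, 797, 239, 321 and 161 in WT1 to WT5. KO1 and KO3 were lowest and WT2 highest, and WT5 lay among the low KO libraries. Hist1h2af had the smallest p among those with higher values in KO, 0.06 ± 0.41 (SE), with means of 1118 ± 573 (KO) and 1089.5 ± 661 (WT; SD, n = 5). The 15 H2A genes spanned differences from -0.46 to 0.06.

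The H2B class had the most negative median as reported, and its 14 genes spanned -1.27 to 0.02. That rank depended on the setting. When members averaging below 50 were dropped, the median was -0.361 for H2B and -0.366 for H4. With near-identical members summed it was -0.341 for H2B, -0.345 for H4 and -0.388 for H3. Without KO5 it was -0.69 for H2B and -0.71 for H4. With RESUB as a covariate H1 was lowest, at 0.19. H2B kept the rank with edgeR, with DESeq2 and without any other single library. Hist1h2bg, the most abundant per kb, was measured at 1036, 1679.7, 1628, 2581 and 5078 in KO1 to KO5 and 3050.1, 6187, 1593, 2460.3 and 1199 in WT1 to WT5. WT2 and KO5 exceeded every other library, and the groups overlapped with a difference of -0.25 ± 0.46 (SE). Hist1h2bb had the highest difference of the class, 0.02 ± 0.37 (SE). Its libraries held 944, 1379, 1292, 1960.0 and 2843 in KO1 to KO5 and 1917, 3528, 908, 1205 and 1166 in WT1 to WT5. WT2 was again the highest library, and WT3 and KO1 were the lowest. Hist3h2ba, a member of low abundance on chromosome 11, had the lowest p of all 57. Its normalized counts were 5.59, 13.1, 11.2, 21.5 and 25.3 in KO1 to KO5 and 37.4, 88.3, 22.3, 33.3 and 18.8 in WT1 to WT5. KO4 and KO5 lay above WT5 and, for KO5, above WT3, so the groups overlapped. The group means were 15.3 ± 7.96 (KO) and 40 ± 28.1 (WT; SD, n = 5), and the difference was -1.27 ± 0.47 (SE) with an unadjusted limma p of 0.0185 and an adjusted p of 0.682. The lowest of these libraries, KO1, held 4 reads of it. Hist1h2bq, at a mean of 21.4 normalized counts, had the next lowest difference, -0.96. Of the 4 H2B genes searched with no stem-loop match, Hist2h2be and Hist1h2br were each 1.18-fold higher in WT2 than in WT5, while Hist1h2bq was 3.73-fold and Hist1h2bc 6.66-fold higher. The median of the 14 H2B genes was 4.22-fold. Hist1h2bq and Hist1h2br share 97.3% and 88.7% of their 50-base stretches with other members, so reads counted for them are uncertain.

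In the 11 pairs of an H2A and an H2B gene that face away from each other across a short gap, the log2 ratio of the partners' levels varied over the 10 libraries with an SD of 0.22 (Hist1h2bf and Hist1h2ad) to 0.73 (Hist2h2ac and Hist2h2be). In every pair this was below 0.84, the median SD of single members within a group. Because all members move together, such a lower value need not be particular to these pairs. Unpaired members were not compared. Hist1h2ak had a mean of 2801 normalized counts and its partner Hist1h2bn 1103. Hist1h2ah and its partner Hist1h2bk were closer, at 1012 and 954.

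H3 and H4 form the tetramer at the centre of the nucleosome. The H3 genes spanned differences of -0.61 to -0.01, so all 10 leaned lower in KO, and none passed the test. Hist1h3h and Hist1h3i, both coding for the H3.1 protein, had the highest levels per kb. Hist1h3h was measured at 1467, 1986, 2188, 4108 and 5855 in KO1 to KO5 and 3803, 8122, 1871, 2711 and 1683 in WT1 to WT5. It spanned 5.54-fold, from KO1 to WT2, and its difference between the groups was -0.16 ± 0.45 (SE). For Hist1h3i the normalized counts were 1562, 2055, 2137, 3722 and 5509 in KO1 to KO5 and 3602, 7438, 1733, 2410.3 and 1858 in WT1 to WT5. KO1, WT3 and WT5 lay at the low end, WT2 and KO5 at the high end, and the difference was -0.11 ± 0.42 (SE). Hist2h3c2, which codes for H3.2 and is far less abundant, had the smallest p of the class with -0.61 ± 0.39 (SE). Its libraries read 21, 23.4, 32.3, 47 and 74.2 in KO1 to KO5 and 62.3, 108, 52.4, 34.8 and 39.9 in WT1 to WT5. KO5 lay above 4 of the 5 WT libraries, and the groups overlapped.

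The H4 class had the widest swing between libraries, although its genes code for a single protein. Per kb of annotated exonic length, Hist1h4f and Hist1h4n had the highest levels of all 57 members, 10045 and 9896 normalized counts. This ranking depends on the gene models. Hist1h4d, the H4 gene with the highest mean count, has a model of 1138 exonic bases with 770 beyond the stem-loop. For Hist1h4f these are 391 and 33. Hist1h4f was measured at 1752, 2324, 1832, 4235 and 6907 in KO1 to KO5 and 4106, 10289, 2226, 3227 and 2379 in WT1 to WT5. WT2 was far from the other WT libraries, and the difference was -0.35 ± 0.46 (SE). Hist1h4n, which shares many words with Hist1h4m, held 1407, 2378, 2092, 4349 and 7648 in KO1 to KO5 and 4834, 11664, 2447, 3631 and 2104 in WT1 to WT5. WT2 and KO5 were highest and KO1 lowest, an 8.29-fold span, and the difference was -0.44 ± 0.50 (SE). Hist1h4m had the smallest p of the class, with means of 30.5 ± 13.1 (KO) and 45.6 ± 22.8 (WT; SD, n = 5) and a difference of -0.56 ± 0.36 (SE). Hist1h4k swung furthest of the class, 11.1-fold between KO1 and WT2. Hist4h4, alone on chromosome 6, was the single H4 gene with a higher fitted value in KO. It read 3045, 3154, 3345, 6549 and 7209 in KO1 to KO5 and 5098, 11002, 1936, 3460.1 and 2897 in WT1 to WT5. WT2, KO5 and KO4 were high and WT3 was the lowest, the groups overlapped, and the difference was 0.10 ± 0.42 (SE).

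The mix of classes was steadier than the total. As a share of the summed normalized count of the 57 genes, H4 held 31.9% ± 2.5 in KO and 33.7% ± 2.0 in WT (SD over 5 libraries each), and H3 held 24.3% ± 0.88 and 23.4% ± 1.2. H1 held 19.7% ± 2.5 and 18.6% ± 2.7, H2A 13.2% ± 0.49 and 12.6% ± 0.37, and H2B 10.9% ± 0.93 and 11.8% ± 1.4. Each class's ranges in KO and WT overlapped. These shares count reads and so favour long transcripts: per kb of annotated exonic length, H2A held 20.2% in KO and 18.8% in WT, and H1 8.36% and 7.78%. In 20 members the annotated transcript runs over 100 bases beyond the stem-loop, and in Hist1h1d 4884 of 7425 bases do. Shares per kb therefore depend on the gene models. The libraries with the highest totals had the smallest H1 share and the largest H4 share. H1 held 15.9% in WT2 and 16.0% in KO5 but 23.0% in WT5, and H4 held 36.6% in WT2 and 35.7% in KO5 but 29.6% in KO3. From WT5 to WT2 the H1 sum was 2.64-fold higher and the H4 sum 4.48-fold higher. In mean log2 level this gap was 1.48 for H1 and 2.25 for H4. After GC content and length were regressed out it was 1.28 for H1 and 1.90 for H4.

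**Figure D3:**
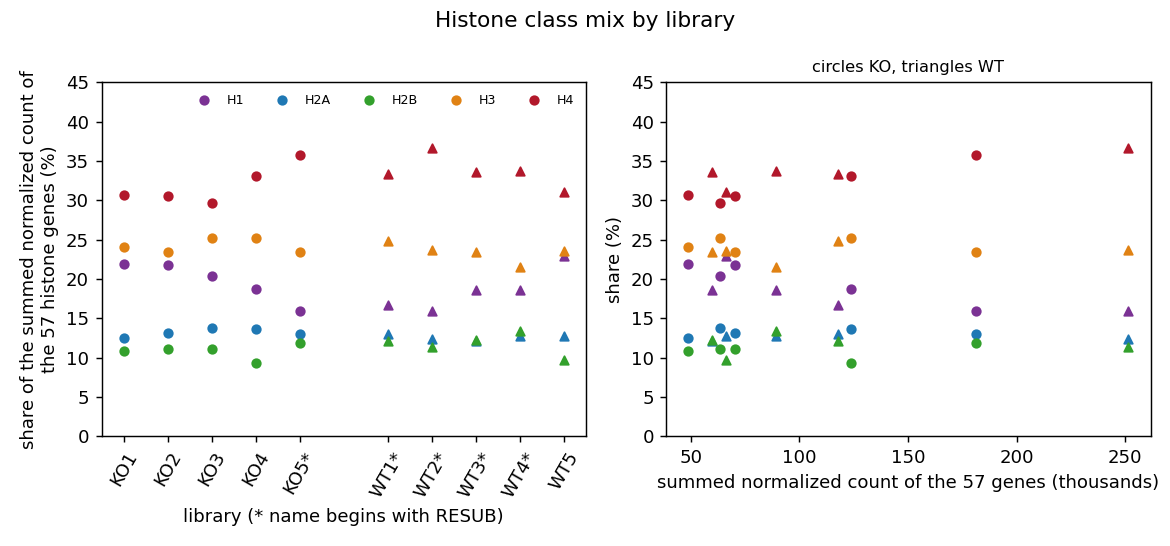
The left panel plots each class's share (%) of the summed normalized count of the 57 histone genes in each library, and the right panel plots the same shares against that sum, with circles for KO and triangles for WT. H4 shares run from 29.6% to 36.6% and H1 shares from 23.0% down to 15.9%, with the 2 highest sums, of KO5 and WT2, at the low end for H1.

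The other genes of the histone pathway spread less between libraries. For the counts of each list below, the share over all genes tested with an unadjusted limma p below 0.05 was 6.49%. The processing and decay factors of histone messages had 22 of 24 listed genes tested, 7 higher and 15 lower in KO, with 0 called by limma (lowest adjusted p 0.862) and 0 at an unadjusted p below 0.05; their median difference was -0.10. Averaged over genes, their log2 level spanned 0.37 between libraries, against 2.34 for the histone genes. Slbp, which binds the stem-loop, had normalized counts of 496, 454, 468, 587 and 678 in KO1 to KO5 and 755, 759.5, 484, 615 and 702 in WT1 to WT5. WT1, WT2 and WT5 were high and KO1, KO2, KO3 and WT3 low, with a 1.67-fold span and a difference of -0.30 ± 0.18 (SE). Snrpg, a subunit of the ring that U7 shares with other small nuclear ribonucleoproteins, had means of 638 ± 244 (KO) and 455 ± 156 (WT; SD, n = 5).

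Transcription factors and cyclin kinases that switch on histone genes leaned lower in 12 of 15 cases and had a median of -0.04, with 0 called by limma (lowest adjusted p 0.790) and 0 at an unadjusted p below 0.05. E2f1, an activator of S phase genes, had means of 315 ± 108 (KO) and 449 ± 149 (WT; SD, n = 5), and E2f2, of the same family, 98.6 ± 12.7 (KO) and 118 ± 9.43 (WT; SD, n = 5). Of the histone chaperones, which carry new histones to DNA, 6 of 24 tested were higher and 18 lower (median -0.09), with 0 called by limma (lowest adjusted p 0.795) and 0 at an unadjusted p below 0.05. Chaf1a, the large subunit of chromatin assembly factor 1, had means of 291 ± 61.3 (KO) and 398 ± 116 (WT; SD, n = 5), but shares 4648 exonic bases with Ubxn6 on the other strand, so their reads cannot be told apart here. Slbp shares 474 exonic bases with Gm10459, a gene model of unsettled type on the other strand. Daxx, a chaperone of the H3.3 variant, had means of 285 ± 34.2 (KO) and 368 ± 102 (WT; SD, n = 5). The mean log2 level of these lists spanned 0.45 and 0.52 between libraries.

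In the fit as reported, genes of DNA replication and of mitosis leaned lower in KO by about as much as the histone genes, and none passed the test. When a library was left out, the S phase median ran from -0.38 to -0.19 and the mitosis median from -0.44 to -0.19. The histone median ran from -0.54 to 0.04. Within the RESUB libraries, with KO5 as the lone KO library, the medians were 0.69 (histone) and 0.085 (S phase). Within the others, with WT5 as the lone WT library, they were 0.12 (histone) and -0.69 (mitosis). Of 40 S phase genes, 38 leaned lower and 2 higher. Their median was -0.28, with 0 called by limma (lowest adjusted p 0.739). At an unadjusted limma p below 0.05 were 4 of the 40, against 6.49% of all genes. Cdt1, a licensing factor of replication origins, had means of 293 ± 67.9 (KO) and 459 ± 184 (WT; SD, n = 5), and Mcm6, a subunit of the replicative helicase, 1564 ± 559 (KO) and 2221 ± 358 (WT; SD, n = 5). Of 18 genes of G2 and mitosis, 18 leaned lower. Their median was -0.31, with 0 called by limma (lowest adjusted p 0.674). At an unadjusted limma p below 0.05 were 2 of the 18, against 6.49% of all genes. The mitotic kinases Aurkb and Plk1 had means of 252 ± 45.8 (KO) and 401 ± 138 (WT; SD, n = 5) and of 300.4 ± 40 (KO) and 452 ± 174 (WT; SD, n = 5); WT4 was far above the rest for both. Their KO and WT libraries did not overlap, which held for 2 of the 18 genes of the list and for 1.42% of all genes; both were named for the smallest p of the list. Of the pathway, cell cycle and RNA lists described here, edgeR and DESeq2 on the recovered reads also called 0 genes in each.

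Between libraries, these lists followed the histone genes in part and over a narrower range. S phase genes, like the histone genes, lay below their mean in KO1, KO2, KO3 and WT3 and above it in KO4, KO5, WT1 and WT2. They differed in WT5, at 0.18 against -0.50 for the histone genes, and in WT4, at 0.28 against -0.01. From KO1 to KO5, where the histone genes went from -0.93 to 0.91, S phase genes stood 0.38 higher and mitotic genes 0.20. S phase genes spanned 0.83 and mitotic genes 1.16 in mean log2 level, and both were lowest in KO3. S phase genes were highest in WT4 and mitotic genes in WT5. From WT5 to WT2, where the histone genes stood 1.90 higher in log2, S phase genes differed by 0.06 and mitotic genes by -0.32. With GC content and length regressed out the histone gap was 1.46, and such values of the other lists are not given here. The genes listed as replication-independent histone variants, H2afx and Cenpa among them, followed the histone genes more closely. They were highest in WT2 and lowest in KO1, spanned 1.22 and stood 1.06 higher in WT2 than in WT5. These are means over the list that include H2afx, the variant nearest to the histone genes, and they were not taken without it. Of 11 variants tested, 5 were higher and 6 lower in KO, with 0 called by limma (lowest adjusted p 0.574). One of them had an unadjusted limma p below 0.05, against 6.49% of all genes. That gene, H1f0, codes for the linker histone H1.0 of resting cells, and its values were 2417, 3585, 2156, 4518 and 4849 in KO1 to KO5 and 6046, 6919, 4684, 6749 and 5016 in WT1 to WT5. KO5 lay above WT3, so the groups overlapped, with a difference of -0.80 ± 0.25 (SE). H3f3b, which codes for H3.3, had means of 7599.7 ± 1864 (KO) and 9805 ± 1685 (WT; SD, n = 5).

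**Figure D4:**
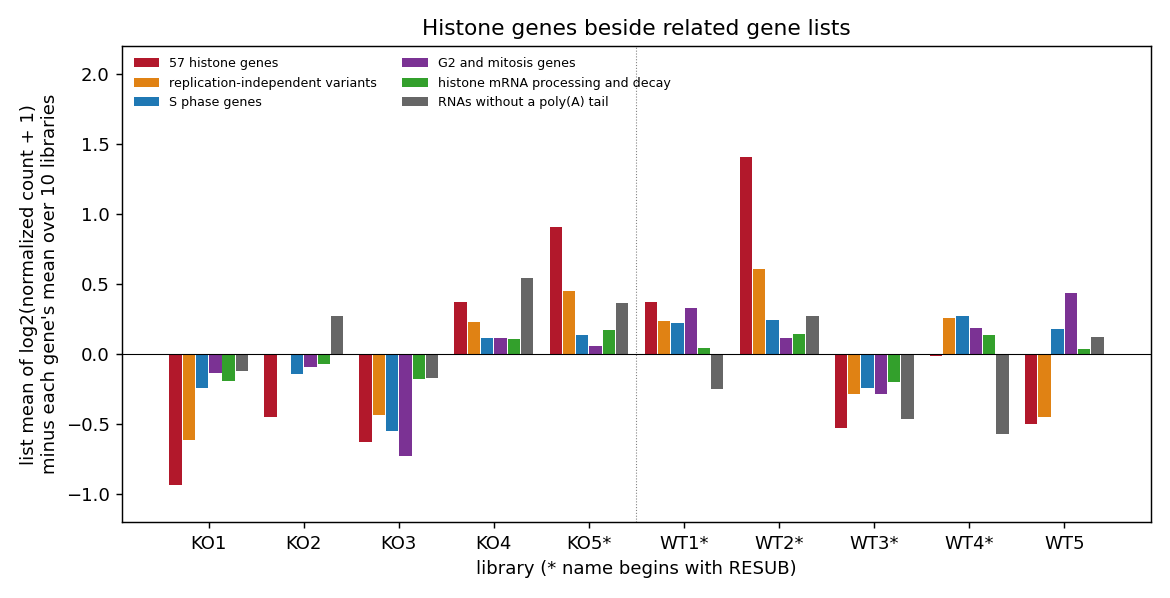
Bars give, for each library (horizontal axis), the mean over a gene list of log2(normalized count + 1) minus each gene's mean over the 10 libraries. The histone genes run from -0.93 in KO1 to 1.40 in WT2, replication-independent variants from -0.61 to 0.61 in the same libraries, and S phase genes stay between -0.55 and 0.28.

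RNA that lacks a poly(A) tail for other reasons leaned the other way between the groups and shared part of the histone order between libraries. Of 17 such RNAs tested, 16 leaned higher in KO. Their median was 0.37, with 0 called by limma (lowest adjusted p 0.676). At an unadjusted limma p below 0.05 were 4 of the 17, against 6.49% of all genes. Rn7s2, a near copy of Rn7s1 and an RNA of the signal recognition particle, had means of 4571 ± 1179.7 (KO) and 3034 ± 566 (WT; SD, n = 5), and Scarna13, a guide RNA of Cajal bodies, 517 ± 154 (KO) and 314 ± 151 (WT; SD, n = 5). Their list was highest in KO4 and lowest in WT4. Like the histone genes, it lay below its mean in KO1, KO3 and WT3 and above it in KO4, KO5 and WT2, but it went the other way in KO2, WT1 and WT5. In WT4 it was at -0.57, where the histone genes were near their mean at -0.01. The list without a poly(A) tail stood 0.15 higher in WT2 than in WT5 and 0.48 higher in KO5 than in KO1. The 13 mitochondrially encoded messages spanned 0.82 and were highest in WT2, as the histone genes were, with WT2 0.07 above WT5 and KO5 0.56 above KO1. Of these, 9 were higher and 4 lower in KO, with a median of 0.16, 0 called by limma (lowest adjusted p 0.919) and 0 at an unadjusted p below 0.05. The genes of the list with the smallest p were both among the 4 lower in KO. They were mt-Nd4l, with means of 164.8 ± 81.5 (KO) and 193 ± 34.6 (WT; SD, n = 5), and mt-Atp6, with 217 ± 73.9 (KO) and 272 ± 134 (WT; SD, n = 5). The whole list summed to 316469 to 556418 in KO and 269416 to 608419 in WT.

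Markers of other cells also moved between the libraries. The 4 erythroid genes tested (alpha and beta globins) were highest in WT2, where they lay 2.52 above their mean in log2, and lowest in WT3 at -2.08. Summed, they ran from 823 to 4061 in KO and from 433 to 11573 in WT, none was at 0, and 3 were higher and 1 lower in KO. The 5 skeletal muscle markers were also highest in WT2, at 5.50, with sums of 202 to 4330.0 in KO and 83.5 to 91999 in WT; all 5 were lower in KO, and Acta1, Myh4 and Ckm were each at 0 in a library, KO3 or WT3. Of the 7 keratinocyte markers, all lower in KO, Krt1, Flg2 and Dsg1a were at 0 in all 5 KO libraries, and summed levels were 203 to 487 in KO and 529 to 11185 in WT, with the highest in WT3. All 7 had an unadjusted limma p below 0.05, against 6.49% of all genes. Limma (lowest adjusted p 0.484) and edgeR (0.373) called 0 of them. DESeq2 called 4 (lowest adjusted p 1.4e-12), the most calls of any list, against 0.676% of all genes. The 9 carcinoma markers, which are those of the labelled tissue, were detected in every library and were all lower in KO, with a median of -0.82. Their sums were 13572 to 19665 in KO and 18986 to 35042 in WT. At an unadjusted limma p below 0.05 were 7 of them, against 6.49% of all genes. Limma (lowest adjusted p 0.373) and edgeR called 0, and DESeq2 called 1, against 0.676% of all genes for DESeq2. T cell markers were higher for 6 of 6, with sums of 323 to 825 in KO and 197 to 402 in WT. Without WT2, WT3 and WT5, the libraries with the most keratinocyte RNA, the median difference over the histone genes was -0.30. The summed keratinocyte level of WT2 (1221) was close to that of WT1 (1198), which was kept. That fit leaves WT1 and WT4, both with the RESUB prefix. It drops the highest histone library, WT2, together with WT3 and WT5, where histone levels were low. The part of keratinocyte, erythroid, muscle, carcinoma and T cell RNA in the histone levels was not tested.

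**Figure D5:**
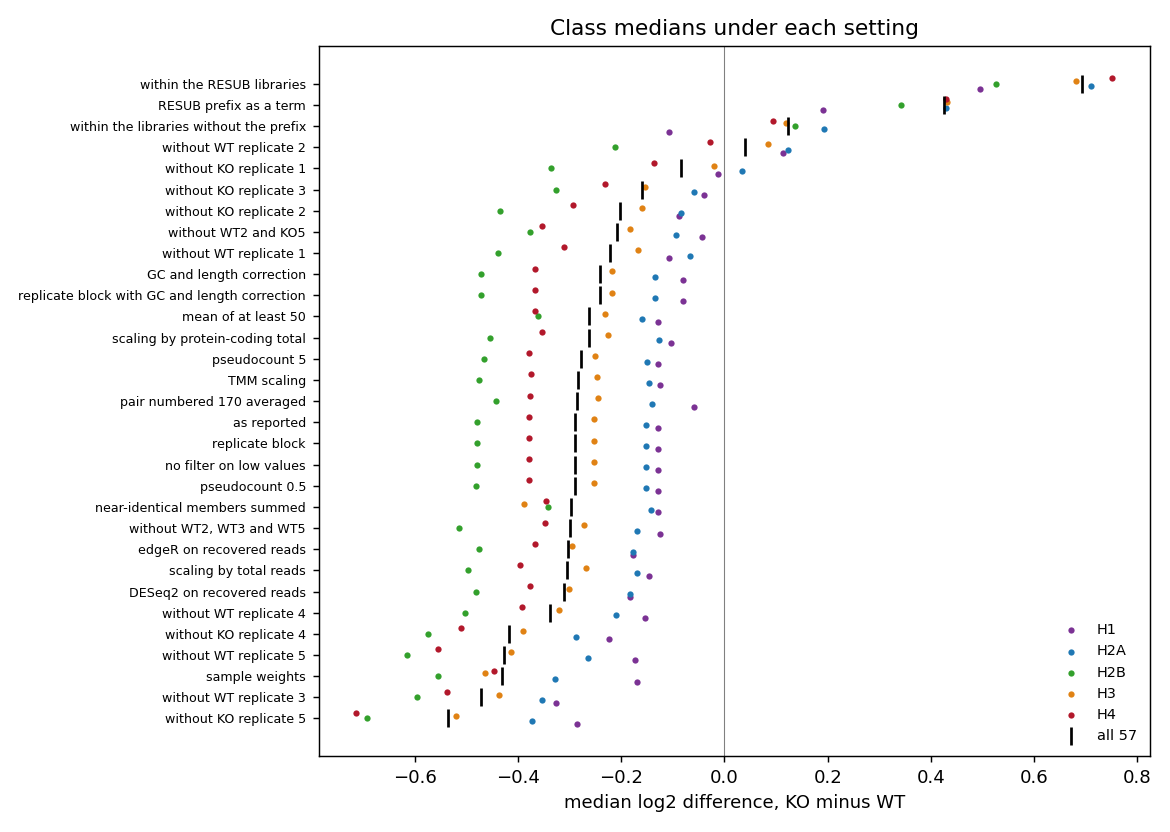
Coloured points give the median log2 difference, KO minus WT (horizontal axis), of each histone class under each way of processing (rows), and black marks that of all 57 genes. The mark lies at -0.29 as reported, between -0.31 and -0.26 under other scalings, pseudocounts and tools, at 0.04 without WT2, and between 0.12 and 0.69 where the RESUB prefix is held fixed.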

How the data were processed

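RNA from sections of 4T1 tumours (10 libraries) was depleted of ribosomal RNA, randomly primed and sequenced, per the labels' protocols. The deposited signal values are read counts normalized by the authors; every value was a whole multiple of the value of 1 read in its library (100% of values), so whole reads were recovered. Base calling used bcl2fastq 2.17 and the genome was GRCm38, both per the submitters' processing notes; the aligner, the counter, strand and the use of molecular identifiers are not given in the sources used here. The 17975 genes that averaged 10 or more normalized counts were tested with limma 3.58.1 in R 4.3.3 on log2(value + 1), with an intensity trend and Benjamini-Hochberg adjustment at 0.05. This scale understates changes of low genes. Alternatives used edgeR 4.0.16 and DESeq2 1.42.0 on the recovered reads, other scalings, pseudocounts, filters, covariates and libraries.

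The members and gene lists were chosen with earlier results of these data known. Named members are, in each class, the 2 with the highest mean per kb of exonic length and those with the smallest p in each direction; named list genes had the smallest p. WT2 and WT5, which share a number in their names, were counted as separate libraries because their counts differed by more than sampling noise, as those of every WT pair did; that does not show that they come from separate tumours, and a fit that averages them is among the alternatives. The limma step was tested on simulated data. A check of the targeted gene is not reported here. Plots used Python 3.11.15 and matplotlib 3.10.9.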

Additional observations from a re-analysis of the deposited data

Results flagged for a closer look

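Groups of 5 libraries were examined for a library far from the rest. Chance alone would mark about 1 in 20 if the groups were independent and their values normally distributed. The histone genes move together and the values were not put on a log scale, so that rate is no yardstick here. Of 88 groups examined, 10 had such a library. WT2 was such a library in 6 of them: Hist1h1b at 7598 normalized counts, Hist3h2ba at 88.3, Hist1h4f at 10289, Hist1h4n at 11664, Hist1h4m at 85.6, and the sum over the H4 genes at 92154. Of the genes beside the histones, KO5 stood apart for E2f1 at 504, and WT4 for Cdt1 at 778, Aurkb at 642 and Plk1 at 762. Outside the 57 members, the processed pseudogene Hist1h2al was detected in every library, with at least 28 reads. It was highest in WT2, at 212 normalized counts, and had a log2 difference of -0.56 ± 0.48 (SE). Its reads may not be separable from those of H2A genes with near-identical letters.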

How the results depend on the processing

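No histone gene was called under any setting run, which include other scalings, pseudocounts and filters, edgeR, DESeq2, GC and length correction, sample weights (lowest adjusted p of a member 0.0738, limma) and leaving out each library. Of all genes, limma as reported and edgeR each called 0.00556% and DESeq2 0.676%. The share under the other settings is not given here, so 0 called says little about the members. The median log2 difference of the 57 members ran from -0.54 (without KO5) to 0.04 (without WT2) when a library was left out, H1 from -0.33 to 0.11, H2A from -0.37 to 0.12, H2B from -0.69 to -0.21, H3 from -0.52 to 0.085 and H4 from -0.71 to -0.03. The median of all members was -0.43 with sample weights and, in a fit added after the data were seen, -0.21 without WT2 and KO5. With WT2 and WT5 averaged it was -0.28. A fit with a replicate block called 0 members. Its median of -0.29 could not differ, because each replicate number holds 1 KO and 1 WT library. The replicate numbers were not shown to pair the libraries: only 1 of 5 KO libraries correlated best with the WT library of its number, and the correlations ran from -0.23 to 0.52.

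With the prefix RESUB as a covariate, 48 of 57 members were higher in KO, against 6 as reported, and the H2B median was 0.34. Among the named members, the log2 differences that turned were Hist1h2ak 0.48, Hist1h2ai 0.61, Hist2h2ac 0.40, Hist1h2bg 0.62, Hist1h3h 0.58, Hist1h3i 0.52, Hist1h4f 0.36 and Hist1h4n 0.43. Within the prefixed libraries 52 members were higher, and the medians were 0.69 for all members, 0.71 for H2A, 0.53 for H2B, 0.68 for H3 and 0.75 for H4, and 0.19 for processing factors, 0.090 for chaperones and 0.085 for S phase genes; the named genes that turned were Hist1h1b 0.43, Hist1h2ak 0.68, Hist1h2ai 0.86, Hist2h2ac 0.52, Hist1h2bg 0.79, Hist1h3h 0.73, Hist1h3i 0.76, Hist2h3c2 0.32, Hist1h4f 0.73, Hist1h4n 0.69, Slbp 0.078, E2f1 0.12, H3f3b 0.058, Mcm6 0.13 and mt-Nd4l 0.62. Within the other libraries 37 members were higher, and the medians were -0.23 for transcription factors and cyclin kinases, -0.69 for mitosis and -0.18 for mitochondrial messages, and of the named members Hist1h2ak 0.28, Hist1h2ai 0.37, Hist2h2ac 0.27, Hist1h2bg 0.46, Hist1h3h 0.43, Hist1h3i 0.27 and Hist1h4n 0.16 turned. The cause was not tested.

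The number of members higher in KO was 2 with sample weights, 4 with DESeq2 and with edgeR, 7 with TMM scaling and with WT2 and WT5 averaged, 8 with GC and length correction, 9 with scaling by protein-coding reads, and 2 to 35 (without WT2) when a library was left out. Named genes that turned were Hist1h2bb -0.052 and Hist4h4 -0.067 with DESeq2, Hist1h2bb -0.046 and Hist4h4 -0.062 with edgeR, Hist1h2ai 0.010 with GC and length correction, with or without the replicate block, Hist1h2ai 0.0068 with scaling by protein-coding reads, Hist1h2af -0.14 with near-identical members summed, Hist1h2ai 0.072 without WT2 and KO5, and mt-Atp6 0.27 without WT2, WT3 and WT5. Sample weights turned Hist1h2af to -0.080, Hist1h2bb to -0.17, Hist4h4 to -0.13 and mt-Atp6 to 0.18, and limma then called Rn7s2, at 0.77. Leaving out single libraries gave Hist1h2af -0.18 to 0.36, Hist1h2ai -0.28 to 0.33, Hist1h2ak -0.42 to 0.12, Hist1h2bb -0.19 to 0.32, Hist1h2bg -0.58 to 0.083, Hist1h3h -0.43 to 0.20, Hist1h3i -0.37 to 0.23, Hist1h4f -0.65 to 0.021 and Hist4h4 -0.17 to 0.46.

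Class shares depended on the denominator. Per kb they were 8.36% (KO) and 7.78% (WT) for H1, 20.2% and 18.8% for H2A, 12.6% and 13.5% for H2B, and 26.3% and 24.8% for H3. Without the most abundant member of each class, H1 in KO was 15.7%, H2A 14.1% and 13.1%, and H3 in KO 25.2%. Depth limits the rarest members: Hist3h2ba rests on as few as 4 reads in a library. Copies with shared letters, unknown use of strand and libraries not tied to animals limit every single value.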

Other observations

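Among the variants listed as replication-independent, H2afx followed the replication-dependent histones most closely. H2afx was singled out after its values were seen. Its normalized counts were 1005, 1808, 1129, 2649 and 4729 in KO1 to KO5 and 3272, 6293, 1556, 2647 and 1821 in WT1 to WT5, a 6.26-fold span with WT2 highest and KO1 lowest. H2afx codes for H2A.X, which is phosphorylated around DNA breaks, and its log2 difference of -0.52 ± 0.45 (SE) did not pass the limma test (adjusted p 0.915). H3f3a (3.10-fold) and H2afz (3.77-fold) were also highest in WT2, whereas H2afy, which codes for macroH2A1, spanned 1.86-fold and was highest in WT4.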
